A study of Mus musculus with 12 samples.

Results

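The 12 libraries of the series, 4 in each of 3 groups, carry a replicate number from 1 to 4, and the comparison described here set the 6 libraries numbered 3 or 4 against the 6 numbered 1 or 2, all 12 of 12. The tissue was medial prefrontal cortex (mPFC), and all mice were male and wild-type. The groups were, first, the ipsilateral, left and the contralateral, right mPFC of mice 28 days after chronic constriction injury (CCI) of the sciatic nerve. The injury is a model of neuropathic pain. Last was the mPFC of naive mice, labelled day 28 habituation, for which no hemisphere is given. The labels do not say what the habituation was. The age of the mice is not stated. Left and right libraries that share a number were read as the 2 hemispheres of 1 mouse, which gives 4 CCI and 4 naive mice, although the labels do not say so, nor what the number stands for. Both classes of number hold 2 libraries of every group, so group and number are balanced. The split was chosen by expression values of these same libraries, because activity-regulated genes had been seen to follow it. Fold changes and counts between the number classes are therefore descriptions of these libraries. The contrasts between CCI and naive mice given further on are not what the split was chosen by. Their fits still hold the number class, so their errors and p-values are not independent of that choice.

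Activity-regulated genes are the genes that neurons switch on within minutes to hours of firing. Calcium entry through synaptic receptors and voltage-gated channels activates kinases that phosphorylate the transcription factors CREB and SRF with its partners, which are already bound at these genes. The first wave, the immediate early genes, needs no new protein and encodes mainly transcription factors such as Fos and Egr1. Further members act at the synapse, such as Arc, or switch the kinase cascade off again, such as the dual-specificity phosphatases. In the cortex their transcripts reflect what an animal experienced shortly before the tissue was taken, and they also respond to growth factors and stress.

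CREB binds the cAMP response element (CRE), whose full palindrome is TGACGTCA and whose core is TGACG. The 250 bases before the annotated start of 4 genes that ran in the order of the replicate numbers in every group are shown because 2 of them hold the full element and the other 2 hold cores only. The sequences are from RefSeq (GRCm38.p6), read 5′ to 3′ on the gene's strand, with CRE cores on either strand in capitals. The Fos window is chr12:85473640-85473889 (plus strand), that of Nr4a1 is chr15:101266596-101266845 (plus), that of Btg2 is chr1:134079156-134079405 (minus) and that of Dusp1 is chr17:26508473-26508722 (minus).
Fos: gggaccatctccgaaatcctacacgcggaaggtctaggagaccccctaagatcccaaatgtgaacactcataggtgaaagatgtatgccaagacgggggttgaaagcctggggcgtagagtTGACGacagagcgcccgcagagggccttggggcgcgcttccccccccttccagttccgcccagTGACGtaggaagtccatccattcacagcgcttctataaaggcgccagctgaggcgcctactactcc
Nr4a1: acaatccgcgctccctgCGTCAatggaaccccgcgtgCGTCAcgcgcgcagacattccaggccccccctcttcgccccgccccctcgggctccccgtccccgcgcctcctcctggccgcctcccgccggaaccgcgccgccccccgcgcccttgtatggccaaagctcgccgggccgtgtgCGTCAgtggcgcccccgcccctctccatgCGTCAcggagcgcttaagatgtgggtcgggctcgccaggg
Btg2: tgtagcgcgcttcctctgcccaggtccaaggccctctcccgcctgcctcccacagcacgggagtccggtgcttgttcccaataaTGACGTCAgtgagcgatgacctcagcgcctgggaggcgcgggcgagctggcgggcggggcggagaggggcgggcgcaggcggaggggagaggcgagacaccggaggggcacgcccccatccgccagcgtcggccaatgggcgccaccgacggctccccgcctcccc
Dusp1: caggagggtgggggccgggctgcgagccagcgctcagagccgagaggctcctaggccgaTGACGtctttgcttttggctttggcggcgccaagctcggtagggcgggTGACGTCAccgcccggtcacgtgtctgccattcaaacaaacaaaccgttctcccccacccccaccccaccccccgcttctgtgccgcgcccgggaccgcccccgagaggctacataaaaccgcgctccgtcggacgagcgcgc
Fos held 2 cores and Nr4a1 held 4. Btg2 and Dusp1 each held 1 full element, which contains a core on either strand, and Dusp1 held a further core. Among the 58 activity-regulated genes with a window in the table, 35 (60.3%) held the core and 9 (15.5%) the full element. Over all 27025 genes with a window the shares were 19.8% and 1.8%. The CArG box, the SRF site, occurred in 3 of the 58 genes (5.2%) against 1.6% of all genes. The AP-1 site TGANTCA occurred in 2 of them (3.4%) against 7.8%. These are matches of letters on both strands of a short window, and binding was not measured.

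Transcription factors of the AP-1 family, which pair FOS and JUN proteins on DNA, were higher at numbers 3 and 4. All 6 tested members had a positive log2 fold change in each of the 3 groups, with a median of 0.61 over the 12 libraries. Fos (ENSMUSG00000021250; chromosome 12, 85473890 to 85477273, GRCm38/mm10), the standard marker of recently active neurons, was at 20.96, 39.0, 43.4 and 64.7 CPM (counts scaled to a common library total) in the left CCI libraries numbered 1 to 4. In the right CCI libraries it was at 18.0, 31.1, 47.0 and 74.9 CPM, and in the naive libraries at 8.31, 27.8, 37.9 and 80.1 CPM. Number 1 was lowest and number 4 highest in each group, and the numbers ran in the same order 3 times. With hemispheres summed, the mice numbered 3 and 4 averaged 58.3 ± 20.02 CPM and those numbered 1 and 2 averaged 22.8 ± 11.7 CPM (SD, n = 4 mice each). The log2 fold change was 1.28 (SE 0.37) over libraries and 1.37 (SE 0.50) over mice. Number-class fold changes and SEs that follow are over libraries unless mice are named. Fosb, whose truncated product accumulates with repeated activity, was at 10.7, 12.9, 16.5 and 22.2 CPM in left, 11.6, 12.3, 20.1 and 32.5 CPM in right, and 7.36, 13.6, 18.1 and 26.7 CPM in naive libraries. Its 6 libraries numbered 3 or 4 all lay above the 6 others (log2 fold change 0.98, SE 0.19). Junb, a JUN partner with its own activity response, was at 32.9, 56.3, 67.3 and 77.5 CPM in left, 41.2, 40.6, 74.6 and 102 CPM in right, and 26.5, 51.6, 55.4 and 105 CPM in naive libraries. Within each group both libraries numbered 3 or 4 were above both numbered 1 or 2. Jun differed less, with a log2 fold change of 0.27 (SE 0.07), and Jund, a member with high basal expression, by 0.15 (SE 0.08).

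**Figure D1:**
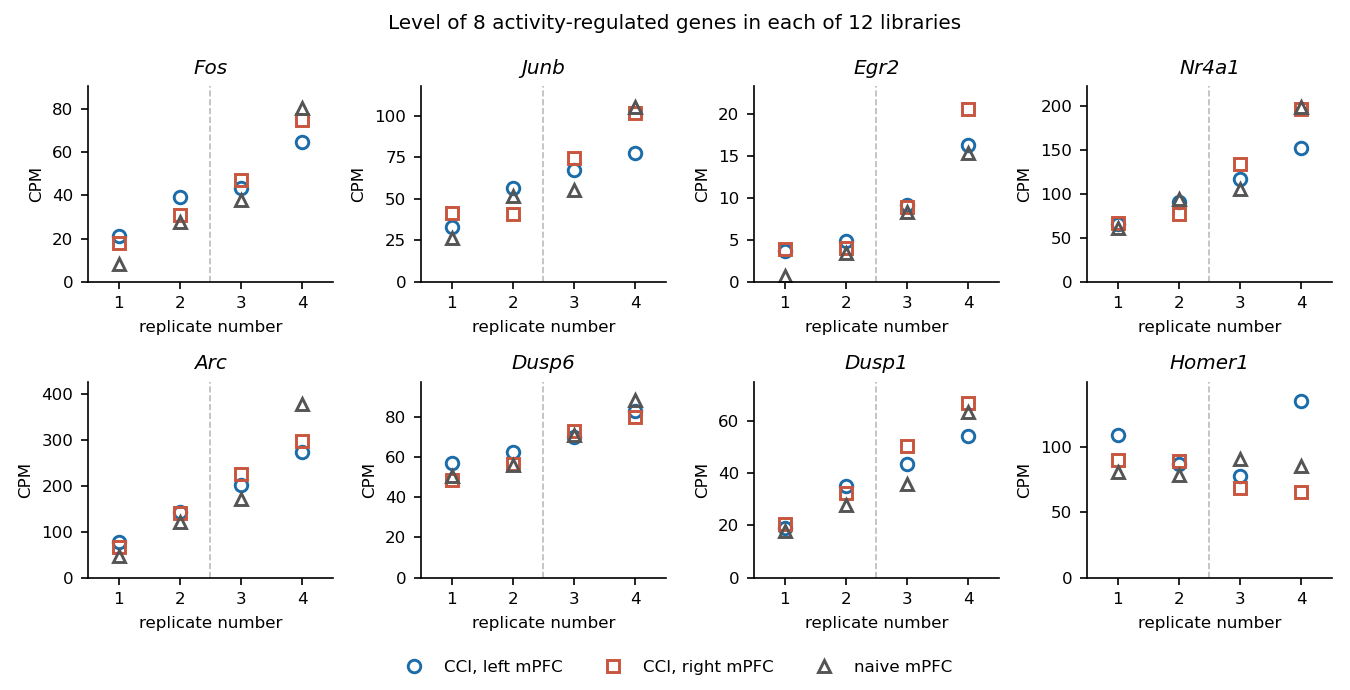
The level in CPM (vertical axis, from 0) of 8 activity-regulated genes is plotted against replicate number for the 4 left CCI, 4 right CCI and 4 naive libraries, 1 point per library. The dashed line separates numbers 1 and 2 from 3 and 4; Fos, Egr2, Nr4a1, Arc, Dusp6 and Dusp1 run in the order of the numbers in all 3 groups, and Homer1 does not.

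Among the zinc finger factors of the Egr family and the orphan nuclear receptors of the Nr4a family, Egr2, Egr3, Egr4 and Nr4a1 had all 6 libraries numbered 3 or 4 above the other 6. The classes overlapped for Egr1, Nr4a2 and Nr4a3. Egr2 had the largest fold change of the tested activity-regulated genes. It was at 3.71, 4.90, 9.15 and 16.3 CPM in left, 3.89, 4.06, 8.94 and 20.7 CPM in right, and 0.725, 3.47, 8.31 and 15.4 CPM in naive libraries numbered 1 to 4. Its log2 fold change was 1.95 (SE 0.37). Nr4a1, the member of its family that responds first, was at 66.2, 91.1, 117 and 152 CPM in left, 66.7, 77.3, 134 and 196 CPM in right, and 60.8, 94.1, 106 and 199 CPM in naive libraries (log2 fold change 0.98, SE 0.20). Naive number 4 stood above the left library of that number and beside the right one. Egr4 had a log2 fold change of 0.87 (SE 0.17) and Egr3 one of 0.40 (SE 0.08). Egr1, the most widely used of the family as an activity marker, was at 347, 281, 288 and 412 CPM in left, 242, 291, 304 and 358 CPM in right, and 173, 266, 258 and 404 CPM in naive libraries. The classes overlapped in the left group and in the naive group, and its log2 fold change was 0.35 (SE 0.16). Nr4a3 was at 39.9, 15.4, 26.0 and 11.99 CPM in left, 39.4, 12.8, 19.6 and 9.19 CPM in right, and 24.1, 12.8, 11.001 and 13.3 CPM in naive libraries. It was highest at number 1 in every group, where Nr4a1 was lowest. The log2 fold changes of Nr4a3 and Nr4a2 were -0.67 (SE 0.39) and -0.27 (SE 0.29), neither at an unadjusted p under 0.05. For Nr4a3 the sign rested on number 1: the value was 0.13 without that number, -0.40 without its right CCI library alone, and -1.18, -1.05 and -0.40 without numbers 2, 3 and 4. Nr4a2 was positive, at 0.49, in left libraries alone.

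Of the 22 other immediate early regulators tested, 21 had a positive fold change over the 12 libraries (median log2 0.31) and 14 in all 3 groups. Btg2, an antiproliferative co-factor of mRNA deadenylation, was at 11.3, 30.8, 41.0 and 41.9 CPM in left, 16.8, 22.1, 41.8 and 62.9 CPM in right, and 11.5, 19.4, 31.6 and 50.3 CPM in naive libraries (log2 fold change 1.27, SE 0.27). All 6 libraries numbered 3 or 4 lay above the rest. Csrnp1, a nuclear transcriptional activator, had a log2 fold change of 0.66 (SE 0.12) and showed the same separation, from 6.97 to 9.24 CPM at numbers 1 and 2 and from 10.1 to 16.9 CPM at numbers 3 and 4. Ier2 (0.97, SE 0.23) and Gadd45b (0.47, SE 0.10), the latter linked to activity-dependent DNA demethylation, ran in the order of the numbers in all groups. Npas4, a factor induced by calcium entry that regulates inhibitory synapses, was at 42.6, 93.0, 90.3 and 90.0 CPM in left, 59.5, 69.1, 115 and 137 CPM in right, and 20.8, 63.1, 79.4 and 106 CPM in naive libraries. In the left group only number 1 was low, so the classes overlapped there (log2 fold change over all libraries 0.84, SE 0.30). The clock-linked genes Per1 (0.31, SE 0.09) and Bhlhe40 (0.25, SE 0.07), which are also induced by activity, differed by less.

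Among the 25 synaptic and secreted effectors, 19 had a positive fold change, with a median of 0.15, and the members spread widely. Arc, whose protein forms capsids and removes AMPA receptors from synapses, was at 77.8, 143, 202 and 275 CPM in left, 66.0, 141, 225 and 299 CPM in right, and 47.7, 120.5, 173 and 379 CPM in naive libraries. The lowest library numbered 3 or 4 was above the highest numbered 1 or 2, and the log2 fold change was 1.39 (SE 0.34). The mice averaged 263 ± 90.8 CPM at numbers 3 and 4 and 95.6 ± 43.5 CPM at numbers 1 and 2 (SD, n = 4 each). Cyr61, a secreted matrix protein, was at 4.23, 10.4, 13.0 and 19.9 CPM in left, 4.44, 9.38, 10.8 and 20.98 CPM in right, and 2.45, 6.18, 8.49 and 21.3 CPM in naive libraries (log2 fold change 1.37, SE 0.38). It too ran in the order of the numbers in each group. Smaller positive values were those of Apold1 (0.76, SE 0.22), an endothelial early response gene, and Adamts1 (0.40, SE 0.08), a secreted protease. Homer1, Bdnf and Vgf, all of them effectors that neurons also induce with activity, overlapped between the classes over the 12 libraries. Homer1, which encodes a scaffold of postsynaptic glutamate receptors, was at 109, 86.8, 78.0 and 135 CPM in left, 89.6, 89.0, 68.7 and 65.3 CPM in right, and 80.5, 78.5, 90.8 and 85.5 CPM in naive libraries. Its log2 fold change was -0.05 (SE 0.14), negative in the right group and positive in the other 2; the counts do not separate its short activity-induced form. The growth factor gene Bdnf gave 0.12 (SE 0.08), negative in the right group, and the neuropeptide precursor gene Vgf gave 0.60 (SE 0.47), with values from 66.0 to 253 CPM in no common order.

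Ctgf, a secreted relative of Cyr61, went the other way and was the single tested activity-regulated gene that was lower at an unadjusted p under 0.05. It was at 56.0, 55.9, 33.3 and 20.01 CPM in left, 74.8, 68.2, 20.7 and 16.6 CPM in right, and 27.4, 37.0, 35.9 and 26.3 CPM in naive libraries. The CCI libraries separated by number and the naive ones overlapped. Ctgf is also a marker of the deepest cortical neurons and stands on the deep-layer list described further on.

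Feedback inhibitors of the kinase cascade had a median log2 fold change of 0.25, and 13 of 14 were positive. Dusp6, the phosphatase that inactivates ERK, had the smallest p of all genes in both the library and the mouse fit. It was at 56.8, 62.7, 70.2 and 82.9 CPM in left, 48.5, 56.5, 73.1 and 79.7 CPM in right, and 50.7, 56.2, 71.0 and 88.2 CPM in naive libraries. The values of one number lay close together across the groups, and the mice averaged 78.1 ± 8.29 CPM at numbers 3 and 4 against 54.9 ± 4.16 CPM at numbers 1 and 2 (SD, n = 4 each). Its log2 fold change was 0.49 (SE 0.07), with an adjusted p of 0.223 by edgeR's quasi-likelihood test. Dusp1, which inactivates p38 and JNK, was at 18.9, 35.2, 43.6 and 54.2 CPM in left, 20.6, 32.6, 50.6 and 66.9 CPM in right, and 17.7, 27.9, 35.8 and 63.4 CPM in naive libraries (log2 fold change 1.04, SE 0.22). Sik1, a kinase that holds back CREB co-activators, gave 0.74 (SE 0.20), with naive number 4 at 23.7 CPM far above the other naive libraries. Dusp5 gave 0.49 (SE 0.14) and Rgs4, a brake on G protein signalling, 0.22 (SE 0.06).

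**Figure D2:**
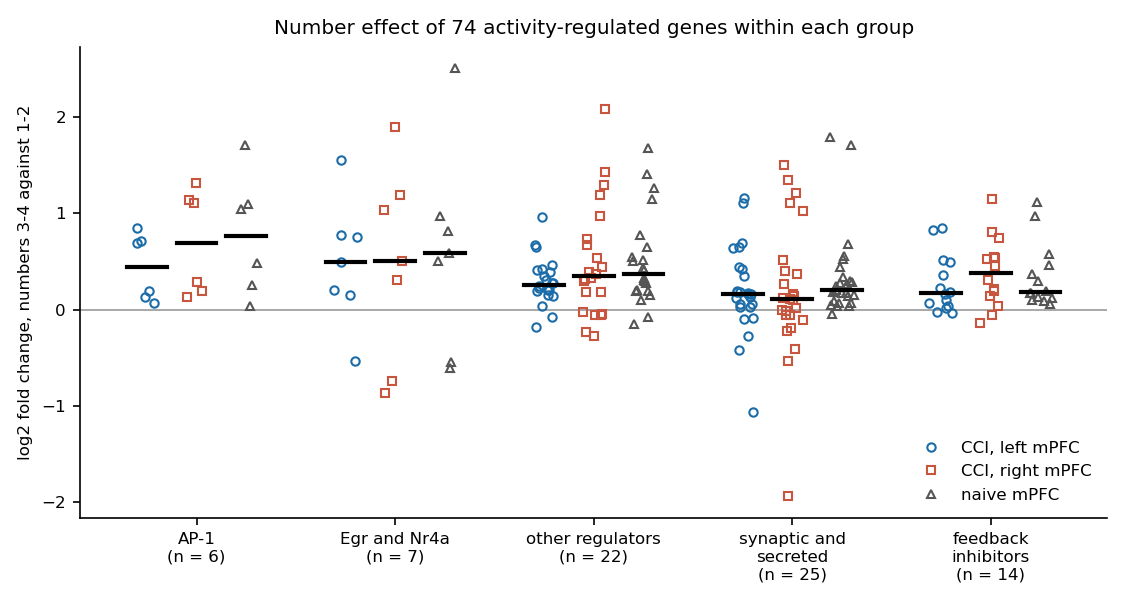
The vertical axis gives the log2 fold change of numbers 3 and 4 against 1 and 2 within each group, from a fit with a separate number effect per group; each point is 1 of 74 activity-regulated genes, and black bars are medians. The medians lie above 0 in all 5 roles and 3 groups, from 0.11 for synaptic and secreted effectors in right CCI libraries to 0.77 for AP-1 genes in naive libraries.

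Over all roles, 74 of the 76 listed genes passed the filter on low counts (Fosl1 and Atf3 did not). Of these, 64 had a positive fold change, and the median was 0.27 against 0.00 over all 15808 genes. The medians within the groups were 0.20 in left, 0.30 in right and 0.29 in naive libraries. At an unadjusted p under 0.05, 36 were higher and 1 was lower, where 4.24% and 3.91% of all tested genes were. A positive fold change in all 3 groups was found for 48 of the 74 (13.7% of all genes). Both libraries numbered 3 or 4 lay above both others within every group for 20 (0.968% of all genes), and for none did they lie below (0.822% of all genes). All 6 lay above all 6 for 12 (0.323% of all genes). The order 1, 2, 3, 4 from low to high in every group was found for 13, and 0.101% of all genes, 16 in number, had it. Since these genes led to the split, nothing is read from the difference between those shares.

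No gene reached an adjusted p under 0.05 in edgeR's quasi-likelihood fit of the 12 libraries (0% of 15808), where 1288 (8.15%) had an unadjusted p under 0.05. In the fit of 8 mice the count was also 0 of 16179 (0%), with 1095 (6.77%) at an unadjusted p under 0.05, of which 32 were activity-regulated genes, all higher (3.65% of all genes were higher at that level). DESeq2 called 94 genes over libraries, 31 of them higher, and 56 over mice; 15 and 9 of these were activity-regulated, all of them higher. limma voom called 0 in both. A fit with a term for each number called 11 genes, all higher, and 10 of them were activity-regulated, namely Dusp1, Cyr61, Nr4a1, Dusp6, Arc, Egr4, Fosb, Btg2, Csrnp1 and Egr2. The fit over libraries takes left and right libraries of one number as independent samples. Where hemispheres of 1 mouse vary together, its SEs and p-values are too small. The SE of the number effect over mice was larger for Fos (0.50 against 0.37 over libraries), Arc (0.46 against 0.34) and Egr2 (0.49 against 0.37). For Adrb1 it was the same (0.07), and for Adcyap1 it was smaller (0.07 against 0.13). The correlation between left and right libraries of one number, estimated by limma over all genes, was -0.173. The fit of 8 mice does not need independence, but it rests on reading those libraries as 1 mouse, which the labels do not state.

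The difference was smaller without number 4. Leaving out the 3 libraries of that number, the median of the activity-regulated genes was 0.18 and 20 of them were higher at an unadjusted p under 0.05. Without number 1 these were 0.26 and 27, without number 2 0.28 and 34, and without number 3 0.37 and 39. The share of all genes at that level in each of these fits is not given here, so nothing is read from the counts. The classes meet at numbers 2 and 3. The score of the 74 genes, which is their average log2 CPM after the mean of every gene was subtracted, was -0.07 at number 2 and 0.09 at number 3 in left, -0.13 and 0.13 in right, and -0.14 and 0.02 in naive libraries. At the outer numbers 1 and 4 it was -0.18 and 0.26 in left, -0.20 and 0.28 in right, and -0.39 and 0.34 in naive libraries.

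The 3 genes that ran in the order of the numbers in every group without standing on the activity lists were Spry1, Ddit4 and the transcript 1700016P03Rik, and they were looked at after their values were seen. Spry1 encodes an inhibitor of receptor tyrosine kinase signalling and ranged from 4.55 to 6.06 CPM at numbers 1 and 2 and from 5.92 to 7.33 CPM at numbers 3 and 4. Its naive libraries numbered 1 and 2 were almost tied, at 5.575 and 5.593 CPM. Ddit4, an inhibitor of mTOR induced by stress hormones and low oxygen, ran from 20.3 to 26.5 CPM over the 12 libraries (log2 fold change 0.14, SE 0.06). Its naive libraries numbered 2 and 3 were almost tied, at 23.14 and 23.20 CPM. With the scaling of the mouse fit that order turned, at 23.1833 and 23.1775 CPM. The transcript 1700016P03Rik (ENSMUSG00000085609; chromosome 11, 75172560 to 75177633) was at 1.49, 2.96, 4.14 and 6.65 CPM in left, 1.70, 2.38, 7.13 and 13.1 CPM in right, and 1.06, 2.59, 3.11 and 7.503 CPM in naive libraries. Its log2 fold change was 1.72 (SE 0.34), and all 6 libraries numbered 3 or 4 were above the other 6. The hairpins of miR-212 and miR-132, a pair of CREB-regulated neuronal microRNAs, lie within its span on the same strand. Their main mature forms are printed from RefSeq (GRCm38.p6) because they share the seed, bases 2 to 8, shown in capitals. They lie at chr11:75173443-75173464 and chr11:75173723-75173744.
mmu-miR-212-3p: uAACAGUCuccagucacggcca
mmu-miR-132-3p: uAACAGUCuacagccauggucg
The libraries were made from mRNA, so the mature microRNAs themselves were not measured.

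Outside the activity lists, the 12 genes of smallest p over libraries included Irf2bp2, a transcriptional co-repressor, at 26.5 to 31.4 CPM at numbers 1 and 2 and 32.3 to 44.1 CPM at numbers 3 and 4 (log2 fold change 0.41, SE 0.07). Erf, an ETS-domain repressor that ERK phosphorylates, gave 0.29 (SE 0.05). The beta-1 adrenergic receptor gene Adrb1 gave 0.34 (SE 0.07) and the atypical cadherin gene Fat3 gave 0.26 (SE 0.05). Lower at numbers 3 and 4 were Cd9, a tetraspanin (-0.28, SE 0.05), Insc, a spindle orientation adaptor (-0.66, SE 0.13), and Itga5, the fibronectin receptor subunit (-0.60, SE 0.12). Over mice the list also held Adcyap1, which encodes the neuropeptide PACAP (log2 fold change 0.39 over mice). None passed the adjusted threshold in edgeR.

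Genes that carry the signal to the nucleus or respond to other stimuli showed smaller median differences. The 28 transducers, kinases, CREB, SRF and receptor genes, had a median of 0.02, and 1 was higher at an unadjusted p under 0.05. Heat shock genes had a median of -0.05 (4 of 15 positive), hypoxia genes -0.04 (5 of 11) and glucocorticoid response genes -0.02 (8 of 18). Of the last, 5 of 18 were higher at an unadjusted p under 0.05, where 4.24% of all genes were. Among them were Mertk and the shared members Per1, Cdkn1a and Ddit4. Circadian clock genes had a median of 0.10 and 16 of 18 were positive, 6 of them at an unadjusted p under 0.05 (4.24% of all genes were higher at that level). Their medians were 0.08 in left, 0.24 in right and 0.006 in naive libraries, where 10 of 18 were positive.

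Markers of cell types moved with the numbers too. The 21 tested oligodendrocyte and myelin genes were all lower at numbers 3 and 4, their median log2 fold change being -0.56, and all 21 had an unadjusted p under 0.05 (3.91% of all genes were lower at that level). Their summed level was 4274 to 6519 CPM in CCI libraries numbered 1 or 2, 2940 to 3879 CPM in those numbered 3 or 4, and 3195 to 4240 CPM in naive libraries. The median was -0.52 in left, -1.06 in right and -0.16 in naive libraries. Opalin, a myelin membrane protein gene, was at 28.7, 27.0, 24.6 and 19.6 CPM in left, 34.8, 39.7, 20.2 and 18.9 CPM in right, and 23.4, 26.2, 23.1 and 19.99 CPM in naive libraries. Its classes separated in all groups, by the least in the naive one. Opalin was the only gene of the 21 to do so (0.822% of all genes lay below in every group). Deep-layer excitatory markers were lower as well, 15 of 15 over the 12 libraries, with medians of -0.30 in left, -0.74 in right and -0.05 in naive libraries. Cplx3, a complexin of the deepest layer, was at 31.1, 29.1, 19.96 and 10.97 CPM in left, 37.1, 37.5, 14.7 and 10.7 CPM in right, and 16.2, 20.7, 17.2 and 14.2 CPM in naive libraries. Of the upper-layer excitatory markers, 9 of 13 were positive, with a median of 0.23 over the 12 libraries, and 2 were higher and 1 was lower at an unadjusted p under 0.05. Their medians were 0.08 in left, 0.44 in right and -0.01 in naive libraries, and their summed level was 2557 to 2686 CPM in CCI libraries numbered 1 or 2 and 2641 to 2908 CPM in those numbered 3 or 4. In bulk tissue, fewer cells of a type and less RNA per cell cannot be told apart.

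Astrocyte, microglia, endothelial and mural markers were close to 0 over all libraries (medians 0.05 to 0.08) but higher in right CCI libraries numbered 3 or 4 (medians 0.33 to 0.44). The right CCI library numbered 1 stood apart in the striatum list, with a score of 1.27 against -0.20 to -0.13 in the other 3 of its group. Without it the activity-regulated median was 0.28, with 32 genes higher at an unadjusted p under 0.05. Total counts were 16.1 to 20.6 M per library, and mitochondrially encoded genes took 6.89% to 9.28%, the 2 highest values being right CCI numbers 4 and 3. With the myelin score as covariate, the activity-regulated median was 0.23, 59 of 74 were positive and 8 were higher at an unadjusted p under 0.05. Shares of all genes at that level are not given for either fit, so nothing is read from the counts. In naive libraries the activity-regulated median was 0.29, the myelin median -0.16 and the deep-layer median -0.05. There 1 of 21 myelin genes was positive. Naive number 4 had the lowest myelin score of its group, -0.42, and the highest activity-regulated score, 0.34. The part of tissue composition in the activity-regulated difference was not tested.

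**Figure D3:**
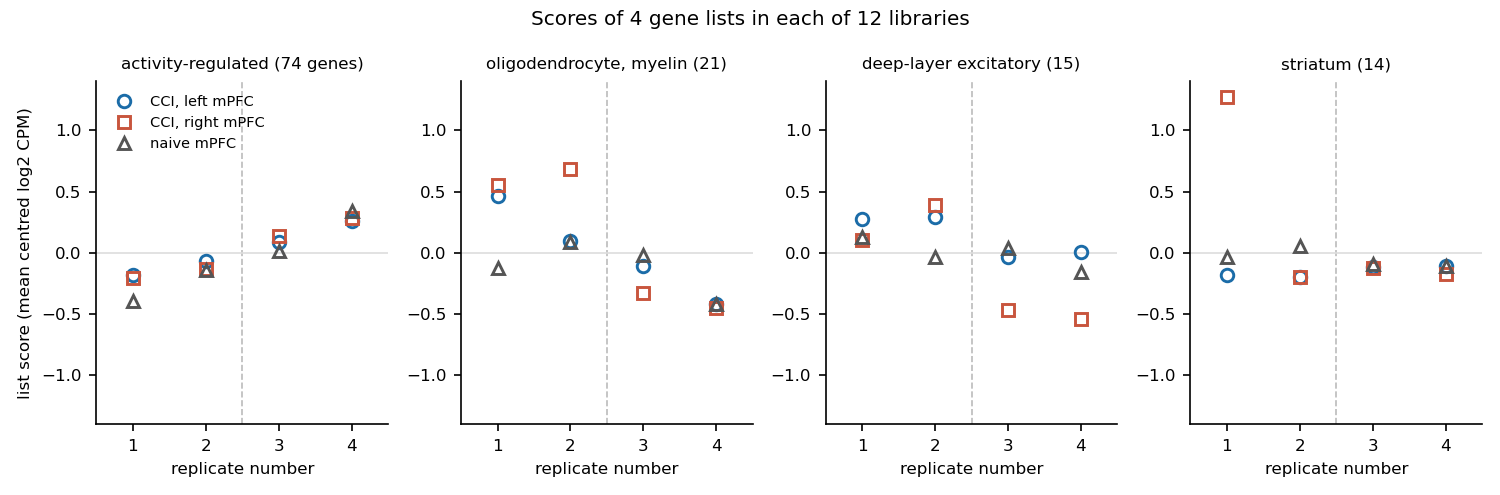
The vertical axis gives the score of a gene list, the average log2 CPM of its genes after subtracting every gene's mean, for each library by replicate number and group. The activity-regulated score runs from -0.39 to 0.34 in the order of the numbers in all groups, the myelin and deep-layer scores separate by number mainly in CCI libraries, and 1 right CCI library stands apart in the striatum list.

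Whether the number effect differed between CCI and naive mice was tested as an interaction over the 8 mice, a contrast the split did not use. Activity-regulated genes did not pass: 0 of 74 had an adjusted p under 0.05 by edgeR, where 13 of 16179 genes (0.0804%) did, and 5 of the 74 had an unadjusted p under 0.05 (8.9% of all genes), all with a negative difference, CCI effect minus naive effect (4.18% of all genes). The median difference of the 74 was -0.12. For Fos the difference was -0.64 (SE 1.07) and for Arc -0.48 (SE 0.99); errors of this size leave room for differences of more than 1 log2 unit either way. For Dusp6 it was -0.13 (SE 0.17). Myelin genes differed in the same contrast by a median of -0.60, and 15 of 21 had an unadjusted p under 0.05, with none past the adjusted threshold. The medians of microglia, astrocyte and mitochondrially encoded genes were 0.35, 0.20 and 0.35.

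Of the 13 genes that passed, 5 had a positive (0.0309% of all genes) and 8 a negative difference (0.0494%). Arhgap25, a GTPase-activating protein for Rac found in blood cells, was at 30.8, 34.05, 18.4 and 19.5 CPM in CCI mice 1 to 4 and at 17.3, 16.3, 25.4 and 24.0 CPM in naive mice 1 to 4. Its number effect was thus opposite in the 2 conditions, and the difference was -1.33 log2 (SE 0.13, adjusted p 0.0079 by edgeR). Adamts2, a procollagen protease, had the same pattern, with 12.2, 10.1, 5.77 and 6.27 CPM in CCI and 6.63, 6.43, 10.99 and 9.91 CPM in naive mice. Hrh3, the histamine H3 autoreceptor, was opposite in sign, at 75.8, 77.8, 111 and 121 CPM in CCI and 97.8, 92.3, 81.2 and 77.8 CPM in naive mice (difference 0.85, SE 0.09). Each hemisphere of CCI mice showed this separation for Hrh3. Islr2, a neuronal receptor of the leucine-rich repeat family, was at 143, 147, 90.1 and 83.2 CPM in CCI and at 121, 121, 123 and 124 CPM in naive mice. Rnasek, which encodes a ribonuclease-family protein tied to the vacuolar proton pump, was at 49.1, 48.4, 27.1 and 26.4 CPM against 25.4, 21.5, 27.5 and 26.8 CPM. Its high values came from 1 hemisphere of each mouse, the right of mouse 1 at 68.6 CPM and the left of mouse 2 at 63.8 CPM, while the other CCI libraries were at 24.9 to 28.8 CPM. Tro, the adhesion gene trophinin, was level in CCI mice and lower at naive numbers 3 and 4, at 114 and 101 CPM against 193 and 196 CPM. These calls rest on 2 mice for each condition and number class, and the count moved with single mice: it was 7 without CCI mouse 4, and 32, 25, 29 and 36 without naive mice 1 to 4 in turn.

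**Figure D4:**
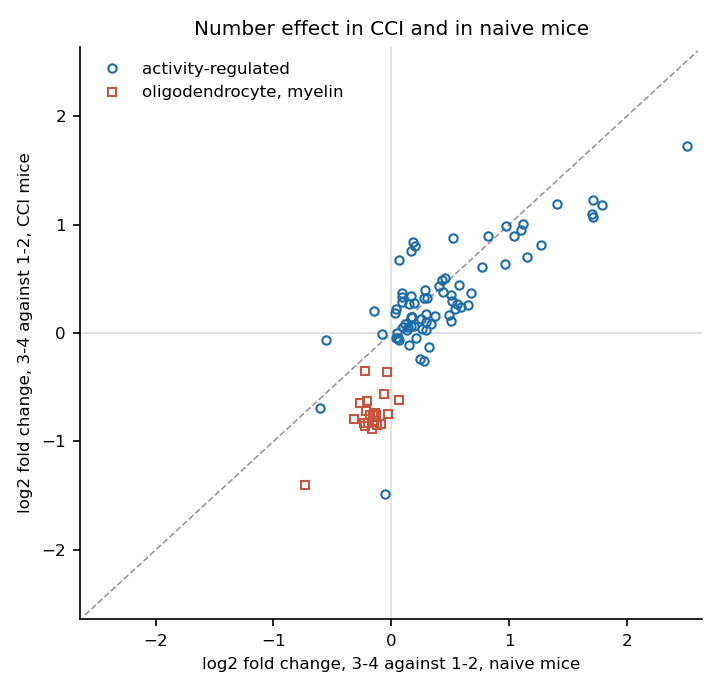
Each point is a gene, with its log2 fold change of numbers 3 and 4 against 1 and 2 in naive mice on the horizontal axis and in CCI mice on the vertical axis; the dashed line marks equal effects. Activity-regulated genes such as Egr2 lie above 0 on both axes, while myelin genes lie mostly below 0 in naive mice and further below 0 in CCI mice. Ctgf is the low activity-regulated point.

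The study's own contrast, CCI against naive, was fitted over mice with the number class held as a covariate. No gene reached an adjusted p under 0.05 by edgeR (0% of 16179), and 733 (4.53%) had an unadjusted p under 0.05; limma voom called 0 and DESeq2 33. Without the class the edgeR count was also 0, with 679 at an unadjusted p under 0.05. Activity-regulated genes had a median log2 difference of 0.05, with 3 higher and 2 lower at an unadjusted p under 0.05 (1.92% and 2.61% of all genes). Fos differed by 0.27 (SE 0.50) between CCI and naive mice, and without the class that SE was 0.70. For Arc the SE was 0.46 with the class and 0.71 without, and for Egr2 0.48 and 0.88. The SE was smaller with the class for 61 of 74 activity-regulated genes and for 6090 of 16179 genes in all, and its median in the activity-regulated genes was 0.14 with and 0.18 without it. For all genes these medians were both 0.09. Since these genes led to the choice of the class, the smaller SE is a description, and their p-values in this contrast depend on that choice too.

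The 6 genes of smallest p in that contrast were Pds5a, Eif4h, Atf2, Wdfy1, Rsrc1 and Ccdc71. Wdfy1, an endosomal adaptor gene, was at 53.5, 37.3, 38.4 and 50.1 CPM in CCI and at 22.6, 22.5, 19.9 and 22.8 CPM in naive mice 1 to 4, with a number effect of -0.06 over mice. Atf2, a CREB-related factor, was at 76.9, 94.3, 88.2 and 82.2 CPM against 121, 110.3, 119.7 and 117 CPM, with a number effect of 0.02. The adjusted p was 0.135 for both by edgeR. With single mice left out the number of genes called ran from 0 to 6, the 6 being without CCI mouse 1.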

How the data were processed

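RNA from 12 mPFC libraries was sequenced from an mRNA kit, per the labels. The deposited table holds raw counts per gene, and for the same libraries the deposited FPKM, which are counts per length and depth; only the counts were tested. HISAT2 2.0.4 and GRCm38/mm10 are listed in the submitters' processing notes; the counting program is not given in the sources used here. The table holds 34745 genes, 11491 of them at 0 in every library. Libraries were grouped by the labels.

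Fits used edgeR 4.0.16 in R 4.3.3 (TMM factors, filterByExpr by group, robust quasi-likelihood, two-sided, Benjamini-Hochberg over all tested genes, threshold 0.05), with group and number class as terms: 12 libraries (15808 genes), or 8 mice with hemispheres summed (16179 genes). DESeq2 1.42.0 and limma 3.58.1 were alternatives. The 2 number fits were tried on simulated counts, drawn independently for every library or mouse, with changes planted in genes of higher counts. Such counts hold no link between hemispheres, so they cannot test whether libraries of 1 mouse are independent. Values are CPM with TMM factors; SEs were derived from each F statistic. List scores use log2 CPM (prior count 2). Promoter windows hold 250 bases. Libraries held 16.1 to 20.6 M counts. Counting error was not measured apart from the spread between mice, and it weighs more in genes of few CPM. The p-values take in both, for these samples only.

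The members and gene lists were chosen with earlier results of these data known. Named genes are members of the 5 activity lists, up to 12 genes of smallest p in the 2 number fits, up to 6 in the 2 other fits, and up to 4 per other list; predicted models, symbols turned into dates and repeated symbols were left out. Alternatives were other scaling, filters and tools, a term for each number, single groups, a covariate for myelin, and fits without single libraries or mice; leaving out a whole number was chosen after seeing the data. Libraries of the same number in different groups did not deviate together across genes (r from -0.137 to 0.103).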

Additional observations from a re-analysis of the deposited data

Results flagged for a closer look

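Single libraries stood far from the other 3 of their group in 22 of the 297 group values looked at, where chance gives about 1 in 20 (14.8). Among activity-regulated genes these were Npas4, low in left CCI number 1 at 42.6 CPM, Bhlhe40 and Sik1, high in naive number 4 at 145 and 23.7 CPM, and Rgs4, high in right CCI number 3 at 439 CPM. Of the other genes of small p by number, Adcyap1 was at 15.8 CPM in right CCI number 2 against 26.0 to 27.3 CPM in the rest of its group, and Mex3b was at 18.8 CPM in left CCI number 1.

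Genes of the contrasts between CCI and naive mice held libraries at separate levels. Rnasek was at 63.8 CPM in left CCI number 2 and at 68.6 CPM in right CCI number 1. Pds5a was at 41.2 CPM in left and 64.2 CPM in right CCI number 4. In left CCI number 4, Eif4h was at 247 CPM against 405 to 416 CPM in the other 3, and Ccdc71 at 6.20 CPM against 20.7 to 23.5 CPM. Wdfy1 was at 19.9 CPM in naive number 3.

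The striatal gene Syndig1l was at 16.2 CPM in right CCI number 1 and at 4.59 CPM in naive number 2, and the striatum score of the former was 1.27. The hypoxia score was 0.14 in right CCI number 2, the meningeal score 0.25 in left CCI number 2 and the choroid plexus and ependyma score 0.28 in left CCI number 3. Total counts were 20.6 M in left and 16.1 M in right CCI number 2, and mitochondrially encoded genes took 7.59% in left CCI number 3.

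By the test of the difference itself over all 8 mice, the number effect differed between CCI and naive mice for Arhgap25 (-1.33 log2), Hrh3 (0.85), Islr2 (-0.77), Rnasek (-1.07), Tro (0.84) and Adamts2 (-1.57). Hrh3, Islr2, Rnasek, Tro and Adamts2 did not pass without CCI mouse 4.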

How the results depend on the processing

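The positive median of the activity-regulated genes kept its direction under all alternatives tried, from 0.18 without number 4 to 0.37 without number 3. Counts of genes called by number over libraries, 0 in the reported fit, were 1 without a count filter, 94 with DESeq2, 28, 19 and 71 in naive, left and right libraries alone, 0 to 1 without single libraries, and 0 to 2 without whole numbers. The replicate block, a term for each number, gave 11 over libraries and 1 for CCI against naive; the numbers pair the samples by label only, as libraries of one number did not deviate together (r from -0.137 to 0.06 between hemispheres). Over mice the count was 56 with DESeq2, 3 with the myelin covariate, 1 with right libraries only, and 0 to 2 without single mice. The difference of the number effect was called for 33 genes without a filter, 75 with DESeq2 and 7 to 36 without single mice. CCI against naive gave 4 without a filter, 33 with DESeq2 and 0 to 6 without single mice. With the myelin covariate the myelin median was 0.0247 over libraries and 0.0148 over mice, as the score is made of these genes. Signs turned for Homer1 (0.15 naive alone, 0.12 left alone, 0.15 with the myelin covariate, -0.182 to 0.0565 without single libraries or whole numbers), Bdnf (-0.11 right alone), Nr4a2 (0.49 left alone) and Nr4a3 (-1.18 to 0.13 without single libraries or whole numbers); the cause was not tested. The number of mice, 2 per condition and class, limits the precision.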
